A study of Mus musculus with 2 samples.

Results

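Mir335 is a single microRNA gene, selected on its level in these libraries: its sense-strand count, scaled to the library total, had the highest mean of 1973 microRNA loci measured in the embryonic mouse face. It is 1 locus of 1973, and its level, rank and share of the counts are therefore descriptions of how it was chosen and carry no test. The measurements come from small-RNA sequencing (inserts under 30 bases, per the labels) of total RNA from facial prominences, the mesenchymal swellings with their epithelial cover from which the face is built. A single group of B6NCrl embryos at embryonic day 11.5, of both sexes, was studied, with no treatment or altered genotype named in the labels. It was sampled as 2 pools of whole tissue, 109 embryos in replicate 1 and 88 in replicate 2, which carry the same donor entry and are numbered as separate biological replicates.

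A microRNA is cut from a hairpin in a longer transcript, and 1 strand of the resulting duplex is loaded into an Argonaute protein. Bases 2 to 8 of that strand, the seed, pair with messenger RNAs and lower their translation and stability. Mir335 lies in an intron of Mest, a gene for a hydrolase-fold protein that is expressed from the paternal allele and is abundant in embryonic mesoderm and mesenchyme. In human breast cancer cells miR-335 is known as a suppressor of metastasis that acts on SOX4 and tenascin C.

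The hairpin and its products are shown because the counts are per hairpin and the seeds set which other microRNAs could share targets with it. Mir335 (ENSMUSG00000065501.1) was annotated at chr6:30741299-30741396 on the plus strand of GRCm38 (mm10). The RefSeq hairpin (GRCm38.p6) has 98 bases and was identical to the GENCODE transcript. In the hairpin line the capitals mark both mature arms, and in the other lines they mark the seed, except that for miR-6986-3p they mark bases 2 to 7.
Mir335 hairpin: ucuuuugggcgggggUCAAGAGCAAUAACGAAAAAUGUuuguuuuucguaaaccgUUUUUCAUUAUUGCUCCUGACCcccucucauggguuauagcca
miR-335-5p: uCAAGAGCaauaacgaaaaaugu
miR-335-3p: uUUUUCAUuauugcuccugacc
miR-17-5p: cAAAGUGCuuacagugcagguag
miR-6986-3p: gUUUUCAccuuccucccag

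The 5′ arm covers bases 16 to 38 of the hairpin and the 3′ arm bases 56 to 77, with 17 bases between them. Both arms are poor in G and C, at 30.4% and 36.4%. In the structure of lowest energy predicted by RNAfold (-44.3 kcal/mol), 18 of the 23 bases of the 5′ arm paired with the 3′ arm, and 72 of the 98 hairpin bases were paired. The counts do not separate the arms, so which of them made up the reads was not analysed here.

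No other mature mouse microRNA among the 1738 RefSeq entries carried the seed of either arm. The 5′ seed, CAAGAGC, pairs with GCUCUUG in a target, and the 3′ seed, UUUUCAU, pairs with AUGAAAA. Holding seeds that no other locus holds was common: it was true of 147 of the 331 loci (44.4%) that averaged 10 or more counts, here called detected, and had a RefSeq mature entry. The runner-up in abundance, Mir17, differs in this respect, since the miR-17-5p seed, AAAGUGC, is carried by products of 6 other loci. Sharing only bases 2 to 7 were miR-7646-5p with the 5′ arm and miR-6986-3p with the 3′ arm. Mir6986 had 2 counts in replicate 1 and 1 in replicate 2, at or under the 3 counts that a count of 0 allows, and Mir7646 was not analysed here.

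Mir335 received 176604 of 1941745 sense counts in replicate 1 and 194134 of 2319881 in replicate 2. These are 90951 CPM (counts scaled to a library of 1000000 sense counts) in replicate 1, with an exact Poisson 95% interval of 90527 to 91376, and 83683 CPM, with an interval of 83311 to 84056, in replicate 2. The intervals cover counting error only, since reads without molecular identifiers are not independent molecules. The level was higher in replicate 1, and the intervals of the pools did not overlap. As a share of sense counts it was 9.10% (exact binomial 95% interval 9.05% to 9.14%) in replicate 1 and 8.37% (8.33% to 8.40%) in replicate 2, or 8.73% ± 0.514 (SD, n = 2).

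Mir335 ranked first in each library taken alone, among reads given to a single locus. The locus just below it was Mir17, which opens the Mir17hg polycistron known for promoting proliferation, with 131238 and 154902 counts. Mir335 led it by 45366 counts in replicate 1 and 39232 in replicate 2, which is 1.35-fold and 1.25-fold. Mir17, Mir99a and Mir126a held places 2 to 4 in both pools. Mir99a had 47453 and 49138 CPM, and Mir126a, an endothelial microRNA, had 39037 and 40424 CPM. Mir130a, at 34623 and 37643 CPM, held place 6 in replicate 1 and place 5 in replicate 2, so its place among its neighbours did not hold beyond the spread between the pools. Divided by hairpin length, a setting added after the data were seen, Mir335 was still first in both libraries at a mean of 891 CPM per base, and Mir17 had 800 CPM per base. Reads are about as long as 1 arm, so counts need not grow with hairpin length.

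**Figure D1:**
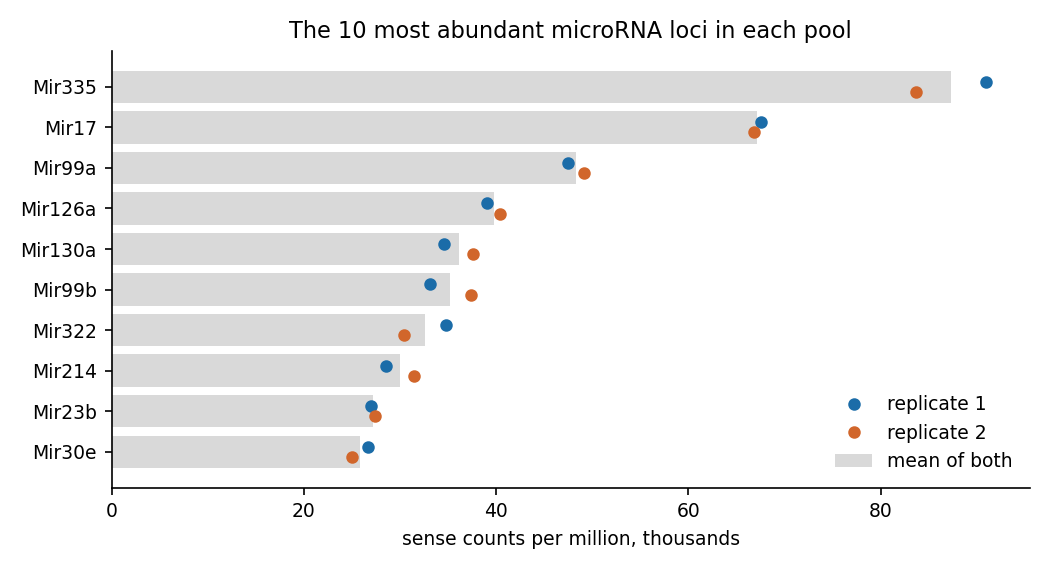
Sense CPM (divided by 1000 on the axis) of the 10 most abundant microRNA loci, with bars at the mean of both pools and points for replicate 1 and replicate 2. Mir335 is at 90951 and 83683 CPM, to the right of both points of Mir17 at 67588 and 66772 CPM.

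The distance between Mir335 and a typical locus was large. Among the 363 detected loci the median level was 172 CPM in replicate 1 and 190 CPM in replicate 2, so Mir335 stood 529-fold and 441-fold above it. In replicate 1, 622 loci had at least 1 count, and the 543 lowest of them together held no more counts than Mir335 alone. In replicate 2 this was true of the 568 lowest of 649.

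As a fraction of everything sequenced, Mir335 made up 3.71% of 4755968 reads in replicate 1 and 2.86% of 6781929 reads in replicate 2. These totals include reads that were unmapped (30.9% and 38.6%) or placed at several positions (22.7% and 20.5%). They also include reads matched in sense to no annotated locus or to more than 1 (5.51% and 6.75%). Sense counts at microRNA loci were 40.8% and 34.2% of the reads. A locus with copies elsewhere in the genome loses reads to the class with several placements. The longest stretch that the Mir335 hairpin shared with any of 1893 other annotated hairpins, on either strand, was 14 bases. For Mir17 it was 13 bases and for Mir130a 17, so none of these reached the 20 bases used here to call hairpins shared. The rest of the genome was not compared, so reads that these loci lost to several placements were not measured. Loci with copies elsewhere may have lost more, and whether Mir335 would rank first with such reads included was not tested.

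The opposite strand of Mir335 was nearly empty. It held 4 counts in replicate 1 and 7 in replicate 2, which is 0.00226% and 0.00361% of the counts on both strands. An empty opposite strand was common: 233 of the 257 loci averaging 100 or more counts had 0 opposite-strand counts in both libraries, and 8 of the 10 most abundant loci had at most 2 in each. Over all loci the opposite strand held 3.04% and 3.24%, of which the 5 highest loci in each library supplied 81.3% and 82.8%.

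The next question was how far the level repeated between the pools. The log2 ratio of CPM, replicate 2 over replicate 1, was -0.12 for Mir335 (interval from counting error -0.13 to -0.11), or 1.09-fold higher in replicate 1. Of 257 well-counted loci (those averaging 100 or more counts), 5 differed by more than 2-fold (1.95%), and Mir335 was not among them. The median size of the log2 ratio over these loci was 0.14, and 143 of them (55.6%) had a larger one than Mir335. Among the 138 loci that averaged 1000 or more counts the median size was 0.12, and 66 (47.8%) had a larger one. Among the 10 most abundant loci the median was 0.11 and 4 had a larger one, with Mir322 at -0.19 the farthest toward replicate 1. The interval at Mir335 therefore excluded 0, but it treats reads as independent, which they need not be. The difference was close in size to that of the typical locus. With 2 libraries of 1 group no two-sided exact test can go below p = 0.5, and no test was run.

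**Figure D2:**
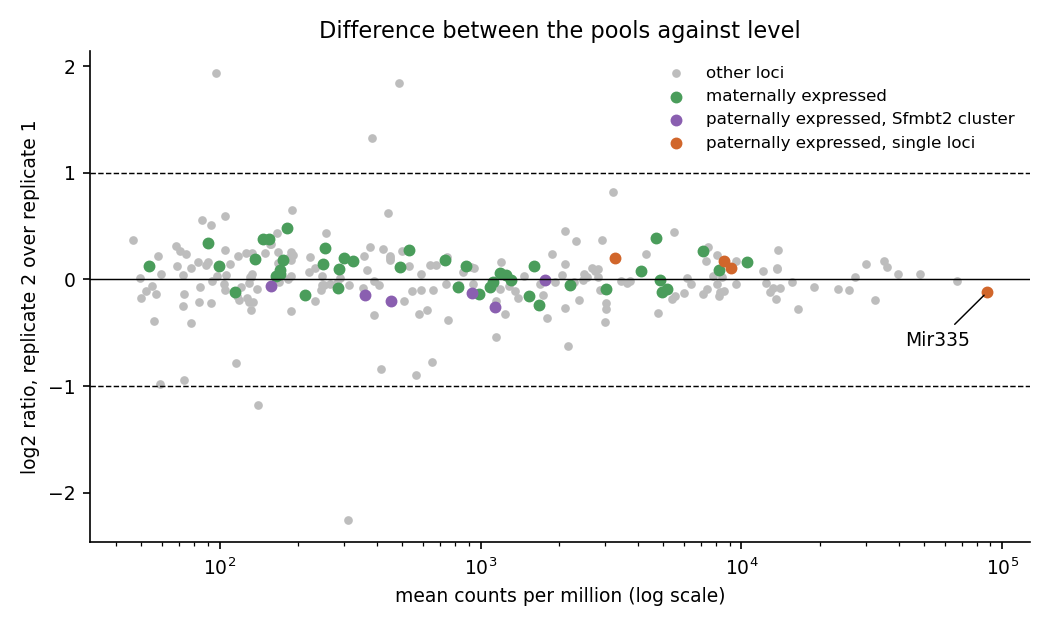
Log2 ratio between the pools (replicate 2 over replicate 1) against mean CPM on a log scale, for the 257 well-counted loci. Colours mark imprinted loci by parent of expression, and the dashed lines mark 2-fold. Mir335 is the rightmost point, at -0.12, well inside the lines.

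Marker loci of the cell types in the sample were read beside this ratio. The 5 mesenchymal loci, all detected, summed to 51022 CPM in replicate 1 and to 54457 CPM in replicate 2, a log2 ratio of 0.09. Members of this list did not all share that direction, since Mir140 was at -0.11. The 7 epithelial loci, also all detected, summed to 33088 and 29540 CPM, a log2 ratio of -0.16 in the same direction as Mir335. Mir126a, listed for endothelium, had a log2 ratio of 0.05. Striated muscle loci summed to 628 and 1494 CPM over 8 measured, of which 5 were detected and Mir133a-1 and Mir133a-2 were at 0. The erythroid pair summed to 264 and 593 CPM, and the 3 leukocyte loci, all detected, to 564 and 672 CPM. The neuronal loci summed to 1415 and 1142 CPM, with 2 of 6 detected and Mir124a-3 at 0. Their log2 ratio of -0.31 also had the direction of Mir335. The hepatocyte locus Mir122 had 15.97 and 43.97 CPM. The largest log2 ratios of the lists were opposite in direction to Mir335, at 1.46 for Mir122, 1.25 for striated muscle and 1.17 for the erythroid pair. The leukocyte loci, at 0.25, were also opposite. The part of cell makeup in the difference at Mir335 was not tested. In whole tissue, fewer cells of a type and less RNA per cell cannot be told apart.

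The loci whose ratio lay nearest to that of Mir335 were taken from 137 others that averaged 1000 or more counts. They were Mir382 of the imprinted Dlk1-Dio3 region (-0.12), Mir18 of the Mir17 cluster (-0.12), the epithelial Mir429 (-0.11), the skin-associated Mir203 (-0.13) and the cartilage-associated Mir140 (-0.11). Mir429 and Mir203 were also counted in the epithelial list above, and Mir140 in the mesenchymal list. Likeness here rests on 1 ratio from 2 libraries and is a description.

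Mir335 was then placed in its host gene. Mest spans chr6:30723547-30748465 on the plus strand, and Mir335 begins 17752 bases after its annotated start. In 7 of the 11 GENCODE M21 transcripts of Mest the hairpin lies in an intron, and no exon of any of them overlaps it. The intron is the same 1316 bases in all 7. The hairpin sits 474 bases after the upstream exon (30740670 to 30740824 in 6 of these transcripts, with a later start in the other) and 744 bases before the downstream exon (30742141 to 30742220). In Mest-211, a transcript with 12 exons, these are exons 2 and 3. Transcripts from several annotated starts therefore contain the same hairpin, and the counts cannot be divided among them. Mest messenger RNA itself was not analysed here.

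Within 1 Mb of Mir335 on chromosome 6 there were 6 other measured loci. The 5 with any count lay on the minus strand, and all of them were lower than Mir335 in both pools. The sensory-organ cluster Mir183, Mir96 and Mir182 lies between 571631 and 575381 bases before Mir335. For Mir183 the level was 14428 CPM in replicate 1 and 13672 CPM in replicate 2, Mir182 had 12553 and 15158 CPM, and Mir96 had 5854 and 5243 CPM. Mir182 was thus higher in replicate 2 and the other members of its cluster in replicate 1, as Mir335 was. On the far side, the matrix-regulating Mir29a lies 321361 bases after Mir335 and had 149 and 162 counts, or 76.7 and 69.8 CPM. Its neighbour Mir29b-1 had 1 and 4 counts. The predicted locus Gm23049, on the plus strand 752911 bases before Mir335, had 0 counts in both libraries, which allows levels of at most 1.55 and 1.29 CPM. Mir335 exceeded Mir183 by 6.21-fold and Mir29a by 1192-fold on the mean CPM.

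**Figure D3:**
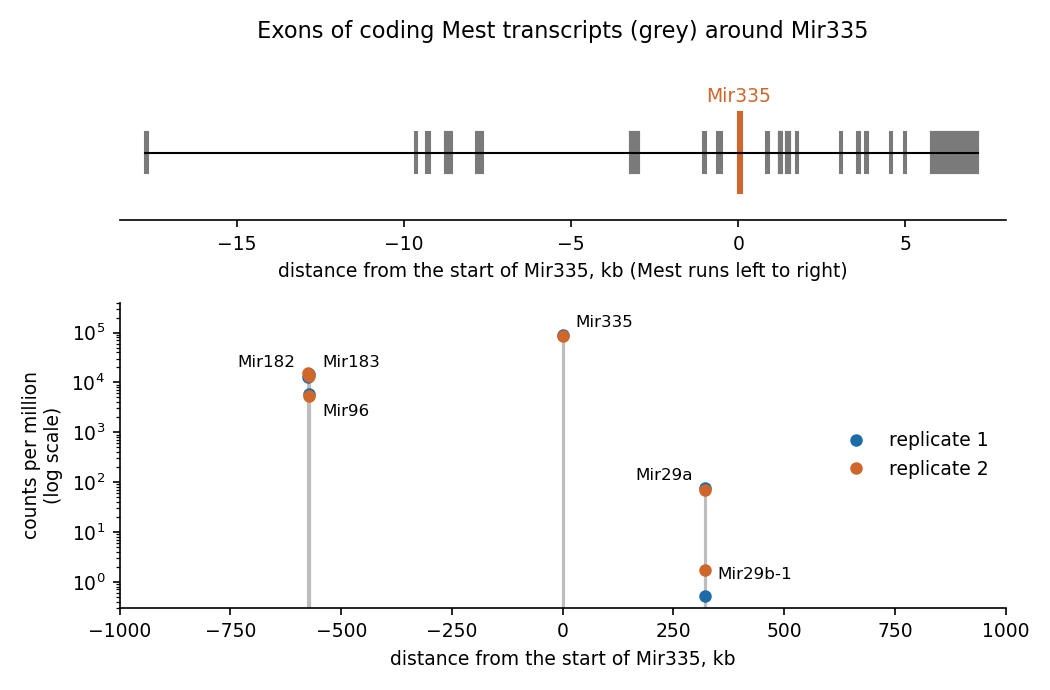
Upper panel, exons of coding Mest transcripts (grey) and Mir335 against distance from the start of Mir335 in kb. Lower panel, CPM (log scale) of the measured loci within 1 Mb that had a count, for both pools. Mir335 stands above the Mir183 cluster on its left and above Mir29a, at 76.7 and 69.8 CPM, on its right.

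Other loci in introns were then read beside Mir335. In all, 686 loci lie in introns of coding transcripts on their own strand, and the 141 detected among them had a median of 131 CPM, against 188 CPM for the 222 other detected loci. This difference was not tested. Together the intronic loci took 43.2% of sense counts in replicate 1 and 42.5% in replicate 2. Mir335 alone supplied 21.1% and 19.7% of these. The next intronic loci were Mir126a in Egfl7, which Mir335 exceeded by 2.20-fold, then Mir99b in Spaca6 at 33096 and 37410 CPM, Mir23b in 2010111I01Rik at 27019 and 27398 CPM, Mir30e in Nfyc at 26715 and 25000 CPM and Mir26b in Ctdsp1 at 19542 and 18546 CPM.

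Imprinted genes are expressed from 1 parental allele, and several hold microRNAs. Mir335 was set beside lists of such loci, with the parent of expression taken as background, since the counts do not separate alleles. Of the paternally expressed single loci, Mir298 and Mir296 in the Gnas region had 8763 and 9448 CPM, and 8051 and 9063 CPM. Mir483, in the growth factor gene Igf2, had 3051 and 3504 CPM. Mir335 exceeded Mir298 by 10.4-fold in replicate 1 and 8.86-fold in replicate 2, Mir296 by 11.3-fold and 9.23-fold, and Mir483 by 29.8-fold and 23.9-fold.

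Mir335 and these other paternal loci differed between the pools in opposite directions. All 3 were higher in replicate 2, with log2 ratios of 0.11 (0.08 to 0.14) for Mir298, 0.17 (0.14 to 0.20) for Mir296 and 0.20 (0.15 to 0.25) for Mir483, intervals of counting error alone. In the Sfmbt2 cluster, a large rodent array of related hairpins, 9 of 59 measured loci were detected. All 6 well-counted members were lower in replicate 2 (median log2 ratio -0.14). The interval of counting error included 0 for Mir467d (-0.069 to 0.063), Mir669o (-0.292 to 0.001) and Mir669c (-0.282 to 0.164). It lay below 0 for Mir467e, Mir467c and Mir669l. The shared direction was not tested. Over all 257 well-counted loci the median was 0.01, and 127 (49.4%) were lower in replicate 2. Mir467d, the most abundant member of the cluster, had 1761 and 1757 CPM, followed by Mir467e at 1235 and 1035 CPM, Mir467c at 969 and 885 CPM and Mir669l at 484 and 422 CPM. Of the 59 hairpins, 58 share at least 20 bases in a row with another annotated hairpin, so reads at these loci may be placed at several positions. The part of this in their counts was not tested.

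Among maternally expressed loci, 46 of 50 measured were detected. Of the 50, 49 lie in the Dlk1-Dio3 region of chromosome 12, and the other is Mir675, within the growth-restraining RNA gene H19 on chromosome 7, at 119 and 110 CPM. Mir299b, on the minus strand of the Dlk1-Dio3 region, was detected with 12 and 31 sense counts. Its opposite strand held 4895 and 5548 counts, which are outside the levels and sums given here. Mir3071 lies on the minus strand in an exon of Rtl1, the paternally expressed gene of this region. The place of Mir3071 in a maternal list is therefore in doubt. Its 565 and 640 counts left the comparisons below nearly as they were when it was taken out, a setting added after the data were seen. The highest members were Mir411 at 9884 and 11091 CPM, Mir487b at 7919 and 8426 CPM, Mir431 at 6483 and 7823 CPM and Mir379 at 5346 and 5025 CPM. Of the 43 well-counted ones, 28 were higher and 15 lower in replicate 2, with a median log2 ratio of 0.09. Without Mir3071 these were 28 and 14, with a median of 0.10. Of all 257 well-counted loci, 127 (49.4%) were lower in replicate 2. The split of the maternal loci was not tested. Over all lists, 0 of 53 well-counted imprinted loci passed 2-fold between the pools, where the background was 1.95%.

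Mir335 alone held more counts than the 50 measured maternal loci together. It did so by 1.27-fold in replicate 1 (139382 maternal counts) and 1.11-fold in replicate 2 (175270). The list held 60 symbols, and any locus whose symbol was not matched is outside this sum. So are the counts opposite to Mir299b. Both folds were the same to the digits given without Mir3071. The imprinted lists together took 18.8% of sense counts in replicate 1 and 18.6% in replicate 2. Mir335 made up 48.5% (exact binomial 95% interval 48.3% to 48.6%) of that sum in replicate 1 and 45.0% (44.9% to 45.2%) in replicate 2. It was the largest single contributor in both pools, which follows from its first rank and carries no test.

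**Figure D4:**
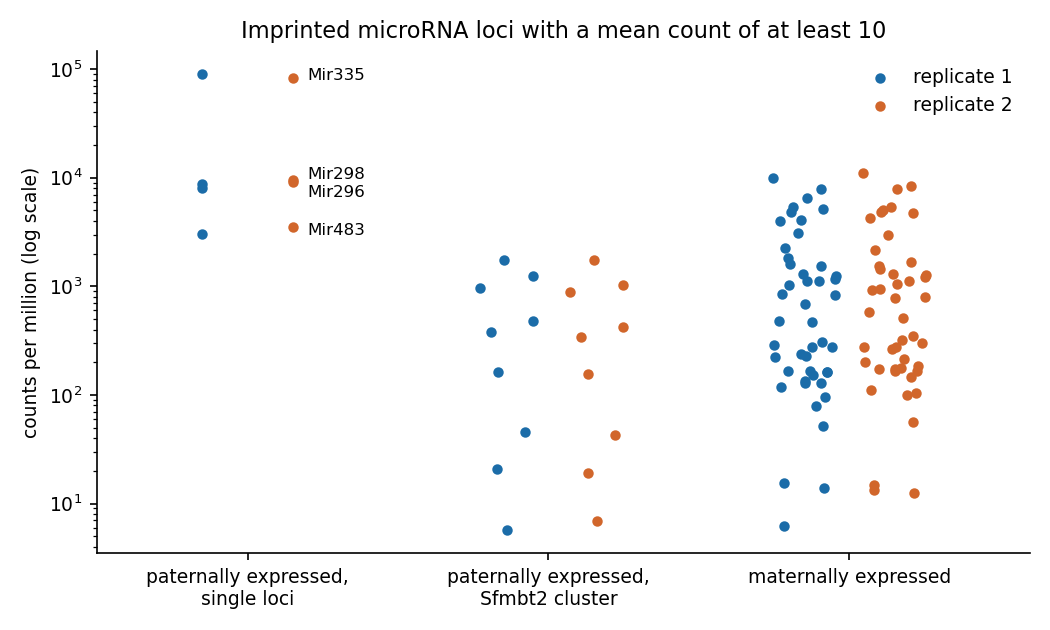
CPM (log scale) of detected imprinted loci in 3 lists, with points for replicate 1 and replicate 2 side by side. Mir335 lies above every other imprinted locus, and Mir298, the next paternal locus, is at 8763 and 9448 CPM.

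Features of the hairpin were compared with those of the 363 detected loci. At 98 bases the Mir335 hairpin was longer than 288 of them (median 84 bases). Its G and C content of 42.9% was below that of 285 loci (median 50.5%). Its predicted folding energy of -44.3 kcal/mol was lower, and so more stable, than that of 285 loci (median -37.2 kcal/mol), but per 100 bases it was -45.2 kcal/mol, with 148 loci lower and 214 higher. On none of these measures was Mir335 at the extreme of the loci compared. How each sequence is ligated and amplified also enters the level of any locus in a small-RNA library, and was not tested.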

How the data were processed

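For each library the deposited values are raw counts of reads per microRNA locus, which the authors made on mm10 with GENCODE M4, per the description deposited with each table. The sources used here name no aligner or counter. Column 3 (sense) was used. The lines without a gene stayed outside the totals, and their shares are given above. Names, positions and hosts came from GENCODE M21 on the same GRCm38 assembly, and 1894 of 1973 identifiers matched. The 79 unmatched held 4 counts. Mature sequences came from RefSeq (GRCm38.p6). CPM was computed from sense counts and compared between pools for loci averaging 100 or more counts. Intervals are exact (Poisson or Clopper-Pearson, 95%). A locus was called intronic when a coding transcript on its strand spanned it and no coding exon of that gene overlapped it. The maternal list held 60 symbols, of which 50 matched.

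The gene, the lists and the rule for naming loci were chosen with earlier results of these data known. The rule names Mir335, the 4 loci after it, measured loci within 1 Mb, loci sharing a seed, the 5 nearest ratios, the 4 most abundant of each imprinted list and the 5 most abundant other intronic loci. The nearest in bases 2 to 7, Mir6986 and Mir7646, and also Mir322, Mir299b, Mir669o and Mir669c were named after their values were seen. The calculation of ratios was checked on simulated data. Alternatives used TMM (edgeR 4.0.16) and DESeq2 1.42.0 scaling under R 4.3.3. The remaining steps ran in Python 3.11.15, scipy 1.17.1 and RNAfold 2.7.2.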

Additional observations from a re-analysis of the deposited data

Results flagged for a closer look

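Counts on the opposite strand, which enter none of the levels or ratios above, were over the 3 counts that a count of 0 allows in both libraries at 3 of the 31 loci chosen for naming. Mir335 had 4 such counts in replicate 1 and 7 in replicate 2. Mir126a had 9 and 6. Mir203 had 24 and 31, or 0.196% (exact binomial 95% interval 0.126% to 0.291%) and 0.232% (0.157% to 0.328%) of its counts on both strands. Over all 1973 loci, 20 were over the limit in both libraries.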

How the results depend on the processing

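Of 23 values under other settings, 15 stayed within a limit and 8 did not, and none changed direction. The limit was 1 SD between replicates for levels and shares, the counting interval for the ratio between pools, an equal rank, and 1.5 times for a count. Some of these outcomes were fixed in advance, so the tally is no measure of stability. Dropping the filter on low counts cannot change the ratio or the first rank of Mir335. Using all reads as the total must lower its level, and leaving Mir335 out of the total must raise it. Mir335 ranked first under every setting run, including CPM per hairpin base. No setting returned the reads placed at several positions to their loci. With all reads as the total, its mean level was 32879 CPM, its share 3.29% and its log2 ratio between pools -0.375, where the median over 257 loci was also shifted, to -0.246, and 11 loci passed 2-fold. With the total taken without Mir335 itself, the level was 95688 CPM and the log2 ratio -0.132. The number past 2-fold was 13 when a mean of 20 counts was required and 3 when 500 were. Leaving out 1 of 2 replicates returns the value of the other and says nothing of stability. The level then ranged from 83683 to 90951 CPM, the share from 8.37% to 9.10%, the log2 ratio over Mir17 from 0.326 to 0.428, and the share of the imprinted sum from 45.0% to 48.5%. No paired analysis was possible because there is 1 group. Few counts limit what can be said of neighbours such as Mir29b-1, and not of Mir335. The part of depth, or of reads placed at several positions, in those few counts was not tested.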
